A study of Homo sapiens with 3 samples.

Results

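Knockdown of DIS3L2 was set beside a non-targeting control in PLC cells, an established line from a human hepatocellular carcinoma, the cancer of the secretory cells of the liver. The comparison holds 2 of the 3 RNA-seq libraries of the series, and 10687 gene loci of the 52153 that could be matched between them were counted. The control group is PLC with a non-targeting short hairpin RNA (labelled NTC). The knockdown group is PLC with hairpins against DIS3L2 (labelled shDIS3L2). Both were grown in DMEM with fetal bovine serum and collected 48 hours after the hairpin viruses were added, and the labels name no other allele, drug or agent. The remaining library, PLC with hairpins against hnRNP U (shHNRNPU), enters no ratio and is quoted for a few genes as a side-by-side value. The design text writes of hairpins in the plural, while the number of hairpin sequences, and any pooling of them, is not given in the sources at hand. By its title, the series asks how DIS3L2 promotes this cancer through splicing that hnRNP U mediates. There was 1 library per group, so no difference has a replicate check, a standard deviation or a p-value, and each describes these libraries only.

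DIS3L2 is a cytoplasmic exoribonuclease that digests RNA from its 3' end and works apart from the RNA exosome. It prefers RNA ends carrying short uridine tails, which the terminal uridyltransferases ZCCHC11 (TUT4) and ZCCHC6 (TUT7) add, and its best-known substrate is the uridylated precursor of the microRNA let-7. Other known substrates are faulty structured noncoding RNAs and uridylated messenger RNAs. PLC cells keep part of the liver program, so their libraries hold transcripts of secreted plasma proteins beside those of an adherent cancer line.

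Values are FPKM, fragment density per kilobase of transcript, scaled by each library's mapped fragments, as deposited with a lower and an upper bound. A pair of FPKM is given with control first and shDIS3L2 second, and a range in parentheses gives the deposited bounds, which reflect estimation in that library alone. The log2 ratio is that of FPKM + 1 in shDIS3L2 over FPKM + 1 in control, a scale that understates the change of low genes. A gene is called higher from a log2 ratio of 1 upward and lower from -1 downward, in both cases only where the 2 intervals lie apart. This is a rule of size and no test. Of the 10687 loci with a mean of at least 1 FPKM and a value above 0 in both libraries, 774 (7.24%) were higher, 541 (5.06%) were lower and 9372 were neither. The median log2 ratio was 0.10, with quartiles of -0.31 and 0.49. A 4-fold difference was reached by 76 higher and 58 lower loci. Rescaling the libraries by the median of ratios moved the log2 ratio of FPKM by -0.13, and that of FPKM + 1 by less for low genes. This took the median to -0.01 and turned the split from 58.9% higher among calls to 45.2%, with 585 higher and 710 lower. Ratios are therefore best read against the median of all loci, and not as absolute amounts. FPKM per gene divides by the lengths of the isoforms assigned, so a shift between isoforms and a change in amount cannot be told apart. In bulk RNA, fewer cells of a type and less RNA per cell cannot be told apart either.

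**Figure D1:**
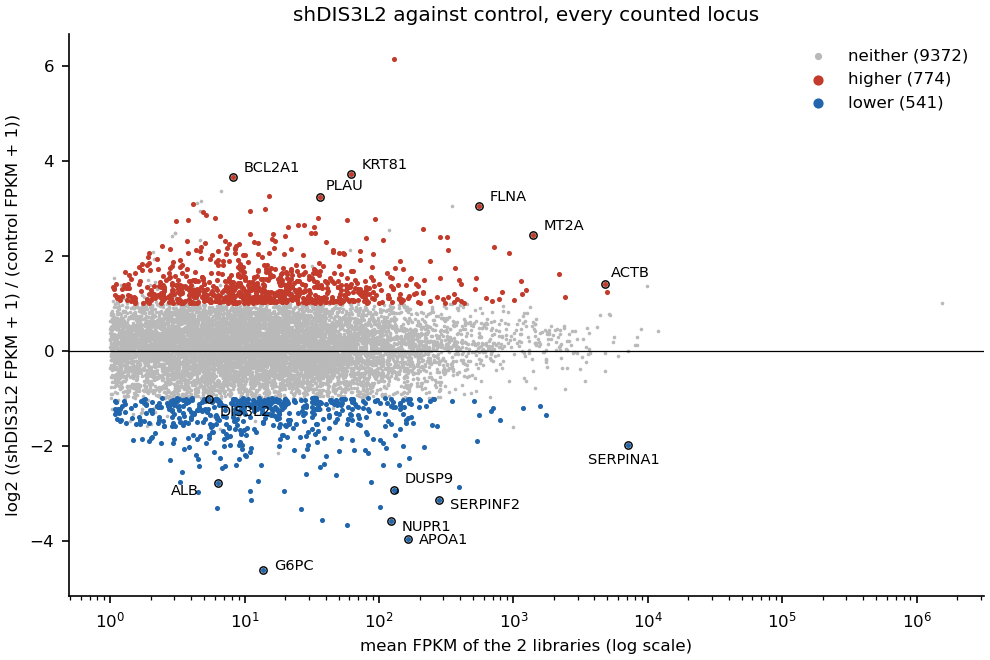
Log2 ratio of shDIS3L2 over control (FPKM + 1, vertical axis) against the mean FPKM of both libraries (horizontal axis, log scale), 1 point per counted locus. Red points are the 774 higher loci, blue points the 541 lower and grey the 9372 neither, and DIS3L2 lies at -1.03 among the blue.

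Depth was worked out from interval widths of single-exon genes, 101 in control and 107 in shDIS3L2. It assumed that the width is a fixed multiple of the spread of fragment counting, which no source at hand states. On that assumption it was 22.7 M fragments in control and 18.2 M in shDIS3L2. The deposited bounds lay at a median distance of 10.7% of the FPKM in control and 11.6% in shDIS3L2 to either side. The share of higher loci was 5.99% at a mean of 1 to 5 FPKM, 8.28% at 5 to 20, 7.93% at 20 to 100 and 6.01% above that. The ratio differed with base composition: over 8906 loci of 1 coding gene, the 5 equal bins by GC content of the longest coding transcript had median log2 ratios of 0.37, 0.25, 0.14, -0.05 and -0.17 from the lowest GC to the highest. In the same order, 11%, 8.2%, 7.41%, 6.4% and 4.32% were higher, and 2.53%, 2.47%, 3.59%, 7.52% and 7.52% were lower. Across these genes, which are not independent replicates and share both libraries, Spearman's correlation between GC and the ratio was -0.313, against 0.094 for transcript length. Centring the ratio by GC left 426 of 665 higher (64.1%) and 346 of 421 lower loci (82.2%) past the rule. Among the counted loci 1319 carry several names and 2880 overlap another expressed gene, whose fragments may be shared. Of genes named below, ACTB, ACTG1, VTN, SCD, FADS1, LAMB3, IL32, MT1X, CFLAR, RPLP2, COX7C, GCLC, WEE1, YAP1, TIMP2, VGLL4, NFE2L2, AKR1C3, PTBP1 and SNHG6 carry a further name that matched no coding gene. An expressed gene overlaps KRT7, KRT81, IL18, LIPC, GDF15, IGF2BP3, CCND1, IHH, LYZ, SERINC5, SPRY4, MLXIPL, PVT1, EEF2K, SLC30A10, MIR22HG, PDGFB, CPT2, ANLN, GPX2, NR0B2, VIL1, RDX, CCNG1, TFPI, VGLL4, NFE2L2, CFLAR, TXNRD1, LIG1, MAP1LC3B, ICAM1, ANXA4, ANXA9, TRAM1, SREBF1, PGM1, NDUFA3, FADS1, EIF2S2, GARS, TLN1, PABPC1, SOD2 and RN7SL1, and, among genes that did not pass, ZCCHC6, ZCCHC11, DIS3, CNOT7, ERBB2, JUNB, ITGB1 and C3. Assembled bounds differed by over 1000 bases between the libraries for FGFR4, PDGFC, COX7B, UCA1, BIK, EEF2K and LIN28B. List counts after GC centring are given below where they differ by more than 1.

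**Figure D2:**
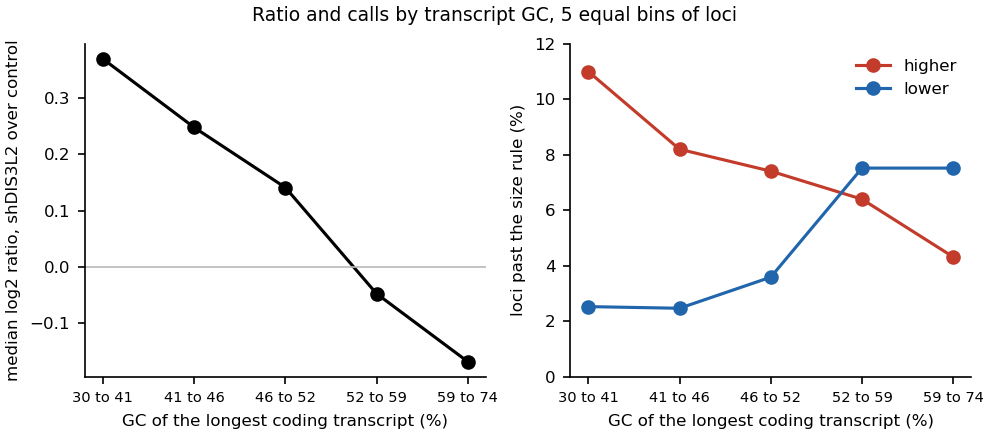
Median log2 ratio of shDIS3L2 over control (left) and percentage of loci past the size rule (right), by GC content of the longest coding transcript in 5 equal bins of the 8906 loci. The median falls from 0.37 in the bin with the least GC to -0.17 in the bin with the most, and lower loci outnumber higher ones in the last 2 bins.

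DIS3L2 (chromosome 2, 232825955 to 233209060, hg19) was measured at 7.61 FPKM (6.7002 to 8.53) in control and 3.23 FPKM (2.31 to 4.15) in shDIS3L2, a log2 ratio of -1.03, with 11.2 FPKM in shHNRNPU. The shDIS3L2 library held the lowest value and the deposited intervals lay apart, so the label matched the targeted gene, and the remaining transcript was measurable. This locus includes the overlapping AC068134.10, whose fragments cannot be separated from those of DIS3L2. None of the other catalytic 3' to 5' nucleases of the list passed the rule. DIS3, the catalytic subunit of the exosome in the nucleus, went from 2.42 to 4.37 FPKM, log2 ratio 0.65. DIS3L, its cytoplasmic counterpart, stood at 8.51 to 8.19 FPKM, and EXOSC10, the nuclear exosome nuclease, at 35.4 to 31.6 FPKM. Among the uridylating enzymes and their relatives, PAPD4 (GLD2), a cytoplasmic polymerase that extends RNA tails, was higher (3.87 to 9.13 FPKM, log2 ratio 1.06). ZCCHC6 went from 1.13 to 2.36 FPKM, log2 ratio 0.66 and ZCCHC11 from 6.22 to 8.84 FPKM, log2 ratio 0.45, both below the rule. LIN28B, which binds the let-7 precursor and recruits these enzymes, stood at 4.72 to 5.37 FPKM, log2 ratio 0.16, while LIN28A was below 1 FPKM. PAPD4 no longer passed after rescaling or after GC centring. The DIS3L2 log2 ratio became -0.998 after GC centring, just short of the rule.

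The remaining RNA decay machinery was measured at near the median of all loci. Of 57 counted genes of the exosome, deadenylation, decapping, nonsense-mediated decay and AU-rich element binding, 0 were higher and 1 was lower, with a median log2 ratio of 0.19, against 7.37% higher, 5.06% lower and a median of 0.11 over the 10046 loci that join at most 1 coding gene. These are the shares with which every list below is to be compared. The lower gene was EXOSC6, a subunit of the exosome ring (48.6 to 20.1 FPKM, log2 ratio -1.23). CNOT7, a deadenylase of the CCR4-NOT complex (6.504 to 11.9 FPKM, log2 ratio 0.78), SMG5, a factor of nonsense-mediated decay (46.7 to 85.1 FPKM, log2 ratio 0.85), and LSM4, of the ring that binds oligoadenylated and oligouridylated ends (432 to 234 FPKM, log2 ratio -0.88), lay farther out than most without passing. Among 26 counted snoRNA host genes and coding transcripts known to be sensitive to decay, 4 were higher and 0 lower, with a median of 0.56. After GC centring, which covers only the 12 coding ones, 3 were higher and their median went from 0.37 to 0.07. The host gene in that group was SNHG6 (269 to 785 FPKM), and SNHG5 came close to the rule (273 to 534 FPKM, log2 ratio 0.97). Genes named in let-7 targeting and in the IGF2BP family gave 2 higher of 16, with a median of 0.27. HMGA2, an architectural chromatin protein silenced by let-7, was measured at 10.9 FPKM (9.97 to 11.8) in control and 30.04 FPKM (28.2 to 31.8) in shDIS3L2. IGF2BP3, an oncofetal RNA-binding protein, was measured at 4.79 FPKM (3.705 to 5.87) in control and 15.3 FPKM (13.5 to 17.1) in shDIS3L2. Both intervals lay apart, and both genes stayed past the rule under rescaling and GC centring. HMGA1 (633 to 649 FPKM, log2 ratio 0.04), MYC (30.6 to 43.3 FPKM, log2 ratio 0.49) and LIN28B did not pass. Mature let-7 is not measured by these libraries.

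Short structured RNAs, which a messenger RNA library captures poorly, were measured in 5 of 18 cases, with a median log2 ratio of -0.71. RN7SL1, around which the signal recognition particle assembles, went down past the rule (2519 to 986 FPKM, log2 ratio -1.35). RMRP, the RNA of the ribonuclease MRP particle, stood at 26.01 to 15.5 FPKM, log2 ratio -0.71, and SNORD3A, the U3 snoRNA, at 67.6 to 36.8 FPKM, log2 ratio -0.86, neither past the rule. The protein side of secretion had few calls: of 30 counted genes of the signal recognition particle, translocon and signal peptidase, SRP14 was higher (221 to 505 FPKM, log2 ratio 1.19) and TRAM1, a membrane protein of the translocon, was lower (38.3 to 16.5 FPKM, log2 ratio -1.16).

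**Figure D3:**
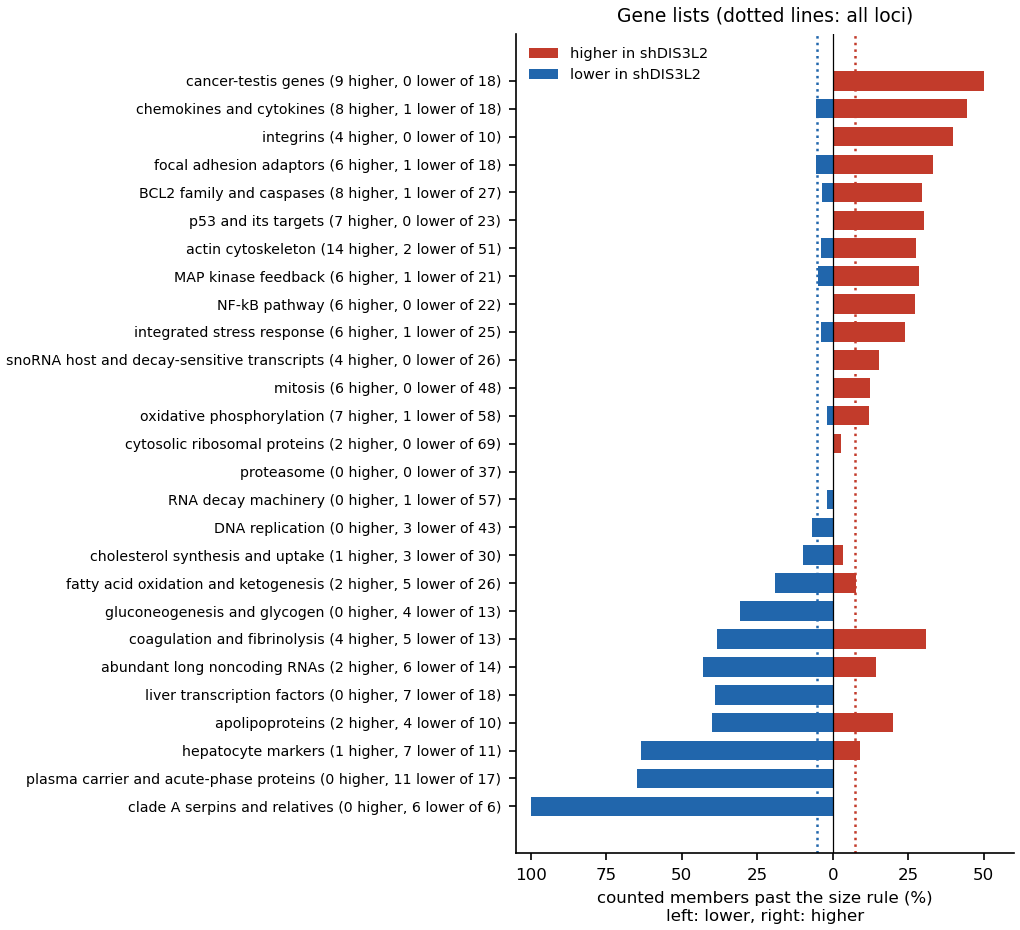
Percentage of counted members past the size rule, lower to the left in blue and higher to the right in red, for 27 gene lists chosen with earlier results of these data known. Dotted lines mark the 7.37% higher and 5.06% lower of all loci that join at most 1 coding gene. Of the lists drawn, liver ones at the bottom lie mostly left, and adhesion, cytokine and survival ones mostly right. Among liver lists not drawn, hepatic transporters (3 of 9), cytochrome P450 enzymes (2 of 10) and nuclear receptors (1 of 13) had only higher calls. Complement (2 of 4), aldo-keto reductases (2 of 5), bile acid synthesis (1 of 3) and conjugation enzymes (1 of 10) had only lower calls.

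Many transcripts of plasma proteins that hepatocytes secrete were lower in shDIS3L2. All 6 counted serpins of clade A and their relatives were lower, with a median log2 ratio of -1.77, as were 11 of 17 carriers and acute-phase proteins, with a median of -1.36 and 0 higher (13 lower after GC centring). Of 13 listed serpins, 3 were below 1 FPKM and 4 lay at joined loci and are not in this count. SERPINA1 (chromosome 14, 94843084 to 94857030), alpha-1-antitrypsin and among the most abundant transcripts of these cells, was measured at 11439 FPKM (10966 to 11912) in control and 2865 FPKM (2745 to 2984) in shDIS3L2, a log2 ratio of -1.997. SERPINA6, the corticosteroid carrier, was measured at 238 FPKM (227 to 249) in control and 44.04 FPKM (40.96 to 47.1) in shDIS3L2, a log2 ratio of -2.41. In shHNRNPU these stood at 6709.8 and 33.2 FPKM. SERPING1, the inhibitor of the first complement component, went from 86.3 to 29.05 FPKM, log2 ratio -1.54, and SERPINF1, an anti-angiogenic serpin, from 194 to 90.2 FPKM, log2 ratio -1.099. Each of these had its shDIS3L2 interval wholly below that of control.

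Carriers of the blood gave the same direction. ALB, albumin, was measured at 11.8 FPKM (10.1 to 13.5) in control and 0.856 FPKM (0 to 2.38) in shDIS3L2, a log2 ratio of -2.78 from a low starting level. HPX, which carries heme, went from 17.1 to 2.94 FPKM, log2 ratio -2.203. RBP4, the retinol carrier, was more abundant and also lower (845 to 225 FPKM, log2 ratio -1.902). TTR, the thyroxine carrier that RBP4 pairs with in plasma, went from 4.09 to 1.32 FPKM, log2 ratio -1.13. VTN, vitronectin, went from 798 to 310.4 FPKM, log2 ratio -1.36. ITIH1 and LBP, of the acute phase, went from 2.82 to 0.447 FPKM and from 2.24 to 0.319 FPKM, and were counted only through their control values. The same holds for ALB, and further below for KNG1, F7, C5, CREB3L3, G6PC, CLDN14 and SLC30A10, all under 1 FPKM in shDIS3L2. Their calls are tied to the filter. Members that did not pass included AMBP, the precursor of alpha-1-microglobulin (4158 to 2671 FPKM, log2 ratio -0.64), and AFP, the fetal counterpart of albumin (19.02 to 9.24 FPKM, log2 ratio -0.97). CP, ceruloplasmin, stood at 33.9 to 38.3 FPKM, log2 ratio 0.17.

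Lipoprotein genes had calls both ways. Of 10 counted members 4 were lower and 2 higher, with a median log2 ratio of -1.18. Besides APOA1 and APOC3, LIPC, the hepatic lipase, was lower, at 69.7 FPKM (66.3 to 73.1) in control and 23.8 FPKM (21.8 to 25.8) in shDIS3L2. SCARB1, the receptor for high-density lipoprotein, was lower (98.5 to 26.2 FPKM, log2 ratio -1.87). CLU, clusterin, an apolipoprotein and extracellular chaperone, was higher at 299 FPKM (288 to 309) in control and 736 FPKM (714 to 758) in shDIS3L2. ANGPTL4, an inhibitor of lipoprotein lipase, was higher too (58.5 to 126 FPKM, log2 ratio 1.095). APOB (16.1 to 9.28 FPKM, log2 ratio -0.74) and APOA2 (21.7 to 11.6 FPKM, log2 ratio -0.85) did not pass, and APOH (29.7 to 5.92 FPKM, log2 ratio -2.15) did not because its deposited intervals overlap. APOM, another lipoprotein component, was at 94.9 FPKM in control and listed at 0 in shDIS3L2, which can be a failed estimate.

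Clotting genes went both ways. Of 13 counted members 4 were higher and 5 lower, with a median of 0.05 that turned to -0.05 under rescaling and -0.19 after GC centring, which left 2 higher and 5 lower. The lower ones were liver-made clotting proteins. KNG1, kininogen, was measured at 6.53 FPKM (5.68 to 7.37) in control and 0.1096 FPKM (0 to 0.2699) in shDIS3L2, and F7, which starts the extrinsic pathway, at 5.23 FPKM (4.404 to 6.06) in control and 0.621 FPKM (0.1398 to 1.102) in shDIS3L2. F2, prothrombin, went from 51.8 to 14.7 FPKM, log2 ratio -1.75, F10 from 4.42 to 1.49 FPKM, log2 ratio -1.12, and PROC, the anticoagulant protein C, from 9.39 to 2.92 FPKM, log2 ratio -1.404. The higher ones began with F3, tissue factor, the cell-surface partner of F7 (5.04 to 13.3 FPKM, log2 ratio 1.24). TFPI, the inhibitor of that pair, also was higher (14.9 to 35.4 FPKM, log2 ratio 1.19). FGB, the fibrinogen beta chain, was higher (6.21 to 17.9 FPKM, log2 ratio 1.39), while FGG (19.1 to 37.1 FPKM, log2 ratio 0.93) and FGA (564 to 298 FPKM, log2 ratio -0.92) did not pass and pointed opposite ways. Of 4 counted complement genes, C5 was lower (3.82 to 0.764 FPKM, log2 ratio -1.45) with SERPING1, and C3, the central component, stood at 255 to 219 FPKM.

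**Figure D4:**
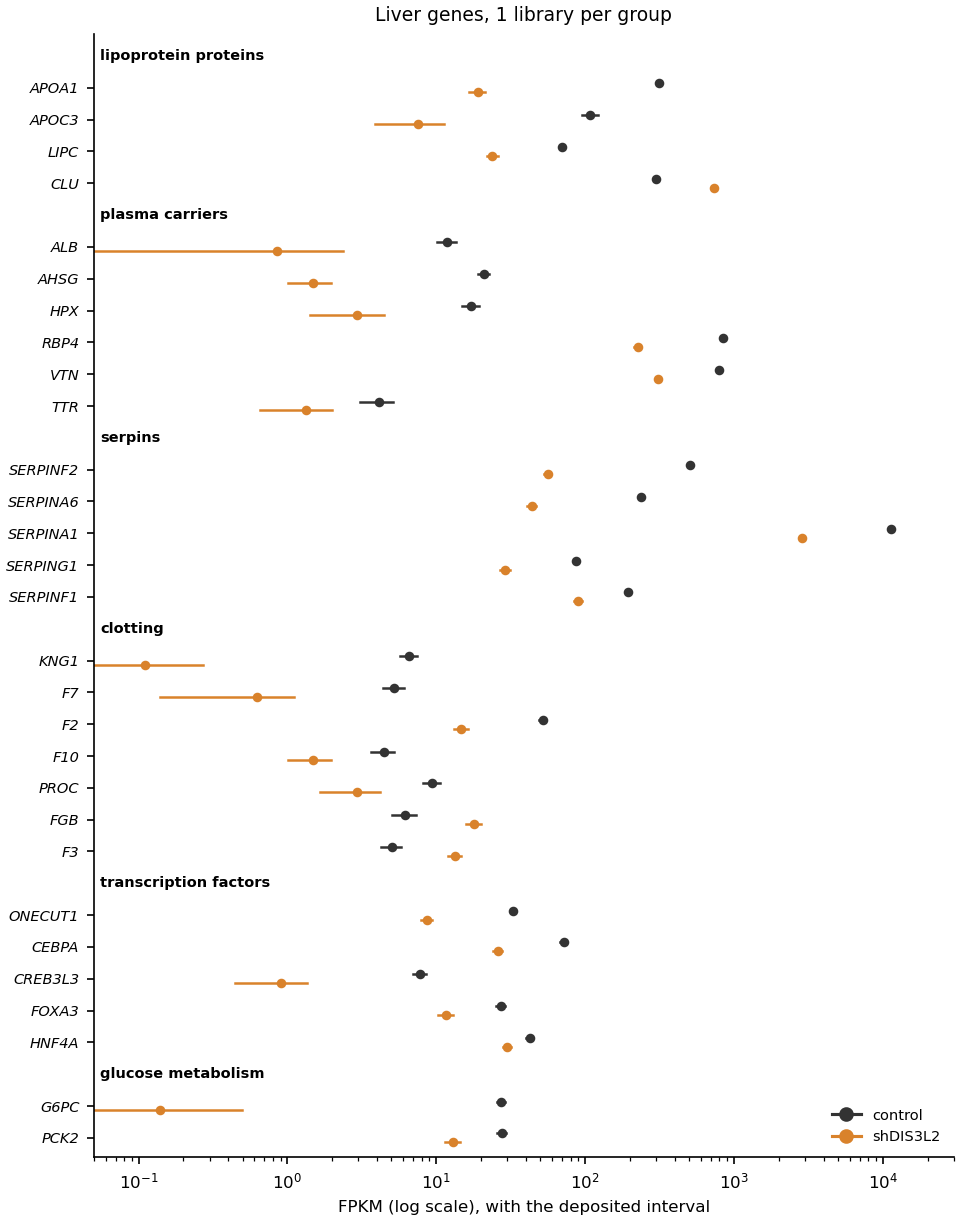
FPKM (horizontal axis, log scale) of liver genes in control (dark) and shDIS3L2 (orange), 1 library each, with bars for the deposited interval. Interval ends below 0.05 FPKM are drawn to the axis edge. All shDIS3L2 points of the serpin and plasma carrier groups lie left of control, whereas CLU, FGB and F3 lie right.

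Of 18 counted transcription factors of the liver 7 were lower and 0 higher, with a median log2 ratio of -0.50 (6 lower and 1 higher after GC centring). CREB3L3, a membrane-bound factor that controls hepatic lipid genes, was measured at 7.74 FPKM (6.93 to 8.56) in control and 0.903 FPKM (0.443 to 1.36) in shDIS3L2, a log2 ratio of -2.1998. FOXA3 went from 27.1 to 11.6 FPKM, log2 ratio -1.16 and FOXA1 from 20.1 to 8.76 FPKM, log2 ratio -1.11, both pioneer factors of the endoderm, and FOXA2, read after its value was seen, went from 32.97 to 34.2 FPKM, log2 ratio 0.05. CEBPD was lower (22.7 to 9.14 FPKM, log2 ratio -1.23), but CEBPB, of the same family and linked to stress and inflammation, pointed up without passing (94.3 to 164 FPKM, log2 ratio 0.796). HNF4A, the central hepatocyte factor, went from 42.3 to 29.8 FPKM, log2 ratio -0.49 and did not pass. NR0B2, a nuclear receptor that represses bile acid synthesis, was the only higher gene among 13 counted liver nuclear receptors (11.9 to 27.1 FPKM, log2 ratio 1.12).

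Promoter letters were compared with these calls as a description. The window searched ran from 250 bases before to 50 after each RefSeq start (GRCh38.p14), on both strands, for 10633 windows of 7301 counted genes, where 2096 genes have several starts. Shares here and below are of windows and not of genes, so a gene with several starts can count more than once. The letters GTTAATNAT, an element known from many liver promoters, were in 0.602% of these windows and in 0.792% of the 35093 windows of the whole RefSeq table, counted or not. They were in 2.52% of the 436 windows of lower genes, in 12.5% of the 40 windows of genes at least 4-fold lower, and in 0 of the 78 windows of genes at least 4-fold higher. Matches in 6 lower genes, from the bottom of the ratio range upward, are shown 80 bases long and 5' to 3' on the gene's strand, all before the start, with the match in capitals. In TM4SF4 and C5 the element lies on the opposite strand.
G6PC, chr17:42900549-42900628, + strand: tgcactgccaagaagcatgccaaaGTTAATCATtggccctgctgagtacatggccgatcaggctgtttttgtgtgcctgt
TM4SF4, chr3:149474520-149474599, + strand: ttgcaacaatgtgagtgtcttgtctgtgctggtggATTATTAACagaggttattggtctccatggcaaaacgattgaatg
ALB, chr4:73404191-73404270, + strand: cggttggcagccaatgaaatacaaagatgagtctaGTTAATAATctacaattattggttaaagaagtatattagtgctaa
PRODH2, chr19:35812909-35812988, - strand: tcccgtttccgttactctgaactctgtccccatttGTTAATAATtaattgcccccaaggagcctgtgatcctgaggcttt
LIPC, chr15:58431890-58431969, + strand: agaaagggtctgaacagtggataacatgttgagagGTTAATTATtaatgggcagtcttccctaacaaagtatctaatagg
C5, chr9:121050300-121050379, - strand: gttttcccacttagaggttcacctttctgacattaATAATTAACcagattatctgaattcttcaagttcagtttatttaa
G6PC, the last enzyme of glucose release, was at 27.2 to 0.1397 FPKM, and its capitals begin 226 bases before the start. In ALB they begin 61 bases before the start and in LIPC 66. TM4SF4, a liver membrane protein of the tetraspanin-like family, was measured at 35.7 FPKM (30.8 to 40.7) in control and 3.75 FPKM (1.85 to 5.64) in shDIS3L2, a log2 ratio of -2.95. PRODH2, which breaks down hydroxyproline, was measured at 18.6 FPKM (16.9 to 20.3) in control and 3.74 FPKM (2.79 to 4.69) in shDIS3L2. A match says only that these letters are present, and occupancy was not measured.

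Other liver-typical genes were among the lowest of the whole comparison. TM4SF5, a relative of TM4SF4, was measured at 689.8 FPKM (663 to 717) in control and 92.9 FPKM (85.5 to 100.3) in shDIS3L2. GJB1, the gap junction protein of hepatocytes, was measured at 153 FPKM (148 to 159) in control and 21.7 FPKM (19.8 to 23.6) in shDIS3L2. Both asialoglycoprotein receptor chains, which clear desialylated plasma proteins, were lower, ASGR1 from 368 to 124 FPKM, log2 ratio -1.56 and ASGR2 from 274 to 121 FPKM, log2 ratio -1.18. FGFR4, the receptor of the bile acid feedback signal, went from 176 to 76.97 FPKM, log2 ratio -1.18. IHH, a hedgehog ligand, went from 8.42 to 0.755 FPKM, log2 ratio -2.42. Among 5 counted aldo-keto reductases, AKR1C1 (265 to 129.8 FPKM, log2 ratio -1.02) and AKR1C3 (91.8 to 41.6 FPKM, log2 ratio -1.12) were lower, but these genes are nearly identical, and the split of reads among them is uncertain.

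Metabolic enzymes were lower in several pathways, at single steps. Of 13 counted genes of gluconeogenesis and glycogen use, 4 were lower and 0 higher. PCK2, the mitochondrial enzyme that makes phosphoenolpyruvate, went from 27.4 to 12.9 FPKM, log2 ratio -1.04, and PYGL, the liver glycogen phosphorylase, from 6.58 to 2.21 FPKM, log2 ratio -1.24. PGM1, which links glycogen and glucose phosphates, went from 48.8 to 21.3 FPKM, log2 ratio -1.16. Phosphofructokinase genes differed in direction: PFKL, the liver isozyme, was measured at 81.8 FPKM (77.7 to 85.8) in control and 22.02 FPKM (20.4 to 23.6) in shDIS3L2, and PFKP, the platelet isozyme, at 12.04 FPKM (10.6 to 13.5) in control and 34.2 FPKM (31.8 to 36.7) in shDIS3L2. SLC2A3, a glucose transporter, was lower (104 to 49.1 FPKM, log2 ratio -1.07). Among 26 counted genes of fatty acid oxidation and ketone making, 5 were lower and 2 higher. SLC25A20, which carries acylcarnitines into mitochondria, went from 26.8 to 9.43 FPKM, log2 ratio -1.42, and CPT2, which acts next, from 10.3 to 4.04 FPKM, log2 ratio -1.17. The acyl-CoA synthetases ACSL3 (16.7 to 37.1 FPKM, log2 ratio 1.11) and ACSL5 (1.09 to 4.65 FPKM, log2 ratio 1.43) were higher.

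Lipid synthesis gave fewer calls. Of 22 counted genes of fatty acid synthesis and storage 3 were lower and 0 higher. SCD, which makes oleate, was measured at 235 FPKM (226 to 243) in control and 81.5 FPKM (77.97 to 85.03) in shDIS3L2, and FADS1, a desaturase of long polyunsaturated chains, at 62.2 FPKM (58.9 to 65.5) in control and 22.9 FPKM (20.7 to 25.1) in shDIS3L2. MLXIPL, the carbohydrate-responsive factor ChREBP, went from 3.59 to 1.02 FPKM, log2 ratio -1.19. The cholesterol list had 3 lower and 1 higher of 30, with a median of -0.37. SREBF1, the factor for lipogenic genes, was at the threshold (44.3 to 21.6 FPKM, log2 ratio -1.001). Amino acid breakdown and the urea cycle had 3 lower and 1 higher of 21 (6 lower after GC centring). ASS1, a urea cycle enzyme, was measured at 963 FPKM (922 to 1004) in control and 399 FPKM (381 to 418) in shDIS3L2.

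The actin cytoskeleton had more higher than lower genes. Of 51 counted members 14 were higher and 2 lower, with a median log2 ratio of 0.57 (0.45 after rescaling, 0.59 after GC centring). FLNA (chromosome X, 153576892 to 153603006), which crosslinks filaments and ties them to integrins, stood out by level, at 118 FPKM (114 to 121) in control and 984 FPKM (949.6 to 1019) in shDIS3L2. TPM2 and TPM4 encode tropomyosins, which wrap the filament. TPM2, named for its level after that was seen, was measured at 1066 FPKM (1030.3 to 1102) in control and 3291 FPKM (3185 to 3396) in shDIS3L2, and TPM4 at 120.4 FPKM (115 to 126) in control and 525 FPKM (507 to 544) in shDIS3L2, log2 ratios of 1.63 and 2.12. MYL9, a regulatory light chain of nonmuscle and smooth muscle myosin, was measured at 90.7 FPKM (85.3 to 96.1) in control and 479 FPKM (459 to 499) in shDIS3L2, though an overlapping expressed gene may share its fragments. In shHNRNPU these 3 stood at 1399, 182 and 169 FPKM. FMNL2, a formin that extends filaments, went from 2.21 to 9.01 FPKM, log2 ratio 1.64. RDX, radixin, which links filaments to the membrane, went from 12.8 to 42.96 FPKM, log2 ratio 1.67.

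The other 2 calls in the list went down. VIL1, villin, the bundler of microvilli in absorptive and hepatic epithelia, was measured at 12.1 FPKM (10.9 to 13.2) in control and 2.701 FPKM (1.96 to 3.44) in shDIS3L2. ACTG1, cytoplasmic gamma-actin, was measured at 1631 FPKM (1563 to 1699) in control and 705 FPKM (674 to 735) in shDIS3L2, while ACTB, beta-actin, was higher (2632 to 6989 FPKM). The actin genes have closely similar coding sequences, and the way the authors' counting divided shared reads is not stated. COTL1, which binds F-actin, was among the 30 highest genes (25.1 to 135 FPKM, log2 ratio 2.38), as was CORO2B, a coronin (0.492 to 9.81 FPKM, log2 ratio 2.86). SSH2, a phosphatase that activates cofilin, was among the 30 lowest (22.7 to 2.53 FPKM, log2 ratio -2.74).

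Adhesion plaques and integrins also had more higher than lower calls. Of 18 counted adaptors of focal adhesions 6 were higher and 1 lower, with a median of 0.45, and of 10 integrins 4 were higher and 0 lower, with a median of 0.76. FHL2, among the higher adaptors, was at 0.374 FPKM in control. It reached the mean of 1 FPKM only through shDIS3L2, so its call is tied to the filter. ZYX, zyxin, which marks adhesions under tension, was measured at 60.5 FPKM (57.5 to 63.4) in control and 361 FPKM (349.96 to 371) in shDIS3L2, a log2 ratio of 2.56, with an expressed gene overlapping its locus. VCL, vinculin, was measured at 36.3 FPKM (34.6 to 38.1) in control and 99.6 FPKM (94.7 to 104) in shDIS3L2. CAV1, the coat protein of caveolae, went from 10.6 to 34.2 FPKM, log2 ratio 1.602, and FERMT2, the integrin activator kindlin-2, from 9.49 to 28.3 FPKM, log2 ratio 1.48. TLN1, the other integrin activator talin, was lower (108 to 49.6 FPKM, log2 ratio -1.11). ITGA6, a laminin-binding chain, was measured at 2.02 FPKM (1.46 to 2.58) in control and 7.79 FPKM (6.81 to 8.77) in shDIS3L2, ITGAV went from 5.64 to 15.9 FPKM, log2 ratio 1.35, and ITGB5, its vitronectin-receptor partner, from 169 to 370.3 FPKM, log2 ratio 1.12. ITGB1, the most shared beta chain, stood at 118 to 212 FPKM, log2 ratio 0.84 and did not pass.

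The matrix list had 4 higher and 4 lower of 30, with a median of -0.03 that became 0.11 after GC centring. LAMB3, a chain of laminin-332, was measured at 6.17 FPKM (4.75 to 7.59) in control and 43.9 FPKM (40.6 to 47.2) in shDIS3L2, a log2 ratio of 2.65. LAMA3, its partner chain, went from 2.202 to 6.41 FPKM, log2 ratio 1.21. SDC4, a syndecan of focal adhesions, was measured at 168 FPKM (159.8 to 175) in control and 567 FPKM (542 to 591) in shDIS3L2. Its relative SDC2 was lower, at 136 FPKM (128 to 145) in control and 30.04 FPKM (26.6 to 33.5) in shDIS3L2, as was GPC3, a glypican and serum marker of liver cancer, at 67.2 FPKM (63.1 to 71.2) in control and 13.7 FPKM (11.8 to 15.6) in shDIS3L2. None of the 7 counted collagen genes passed the rule, and FN1, fibronectin, stood at 372 to 569.7 FPKM, log2 ratio 0.61. PLAU, urokinase, and TIMP2, a metalloprotease inhibitor (15.1 to 41.2 FPKM, log2 ratio 1.39), were the higher 2 of 11 counted matrix proteases and inhibitors.

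Intermediate filament and junction genes showed single members out of range. KRT7, a keratin of bile duct cells, was measured at 7.04 FPKM (5.17 to 8.91) in control and 32.2 FPKM (27.2 to 37.2) in shDIS3L2, a log2 ratio of 2.04. VIM, vimentin, the filament of mesenchymal cells, was measured at 113 FPKM (107 to 118) in control and 318 FPKM (303 to 333) in shDIS3L2, and KRT15, a basal keratin, at 1.75 FPKM (1.05 to 2.46) in control and 5.85 FPKM (4.59 to 7.096) in shDIS3L2. These, with KRT81, were 4 higher of 13 counted, and 0 were lower. SNAI1, a repressor of epithelial genes, went from 4.28 to 10.4 FPKM, log2 ratio 1.11. In the list of epithelial and mesenchymal genes 5 of 31 were higher and 2 lower: the tight junction genes CLDN14 (3.71 to 0.322 FPKM, log2 ratio -1.83) and CGN were lower, and TJP1 (5.07 to 11.6 FPKM, log2 ratio 1.05) was higher. ANXA3, an annexin, was higher (15.1 to 56.4 FPKM, log2 ratio 1.84), and ANXA4 (159.6 to 42.8 FPKM, log2 ratio -1.87) and ANXA9 (29.5 to 7.36 FPKM, log2 ratio -1.87) were lower.

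The CArG box, the element bound by serum response factor in many actin and muscle genes, was searched in the same windows. It was in 1.17% of the windows of counted genes, in 1.29% of the whole table, in 1.61% of the 868 windows of higher genes, in 7.69% of the 78 windows at least 4-fold higher and in 2.5% of the 40 at least 4-fold lower. Cytoskeletal genes with a match before the start are shown, with the box in capitals, on the gene's strand (GRCh38.p14, RefSeq).
FLNA, chrX:154374684-154374763, - strand: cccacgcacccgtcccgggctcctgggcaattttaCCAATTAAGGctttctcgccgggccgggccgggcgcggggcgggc
FHL2, chr2:105399066-105399145, - strand: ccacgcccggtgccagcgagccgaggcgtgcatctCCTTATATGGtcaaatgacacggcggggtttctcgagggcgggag
TPM4, chr19:16067330-16067409, + strand: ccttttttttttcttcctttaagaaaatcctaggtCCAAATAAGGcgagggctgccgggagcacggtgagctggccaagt
The boxes begin 94, 59 and 173 bases before the start in FLNA, FHL2 and TPM4, and FHL2 and TPM4 have 4 and 3 windows each. FHL2, an adaptor between adhesions and the nucleus, was at 0.374 to 9.42 FPKM. Of 19 counted targets of YAP and TEAD, which respond to cell shape and adhesion, 5 were higher and 0 lower, with a median of 0.67. With 8 factors of the pathway, the list had 6 higher and 1 lower of 27 (4 higher and 2 lower both after rescaling and after GC centring). CYR61, a matrix signal protein, was measured at 126 FPKM (120.5 to 131) in control and 298 FPKM (285 to 312) in shDIS3L2, YAP1 itself went from 12.9 to 27.5 FPKM, log2 ratio 1.04, and VGLL4, which competes with YAP1 for TEAD, was lower (17.3 to 7.79 FPKM, log2 ratio -1.06). The TEAD letters CATTCC were in 11.2% of the windows of counted genes, 14% of the whole table, 12.6% of those of higher genes and 12.8% of those of lower genes.

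**Figure D5:**
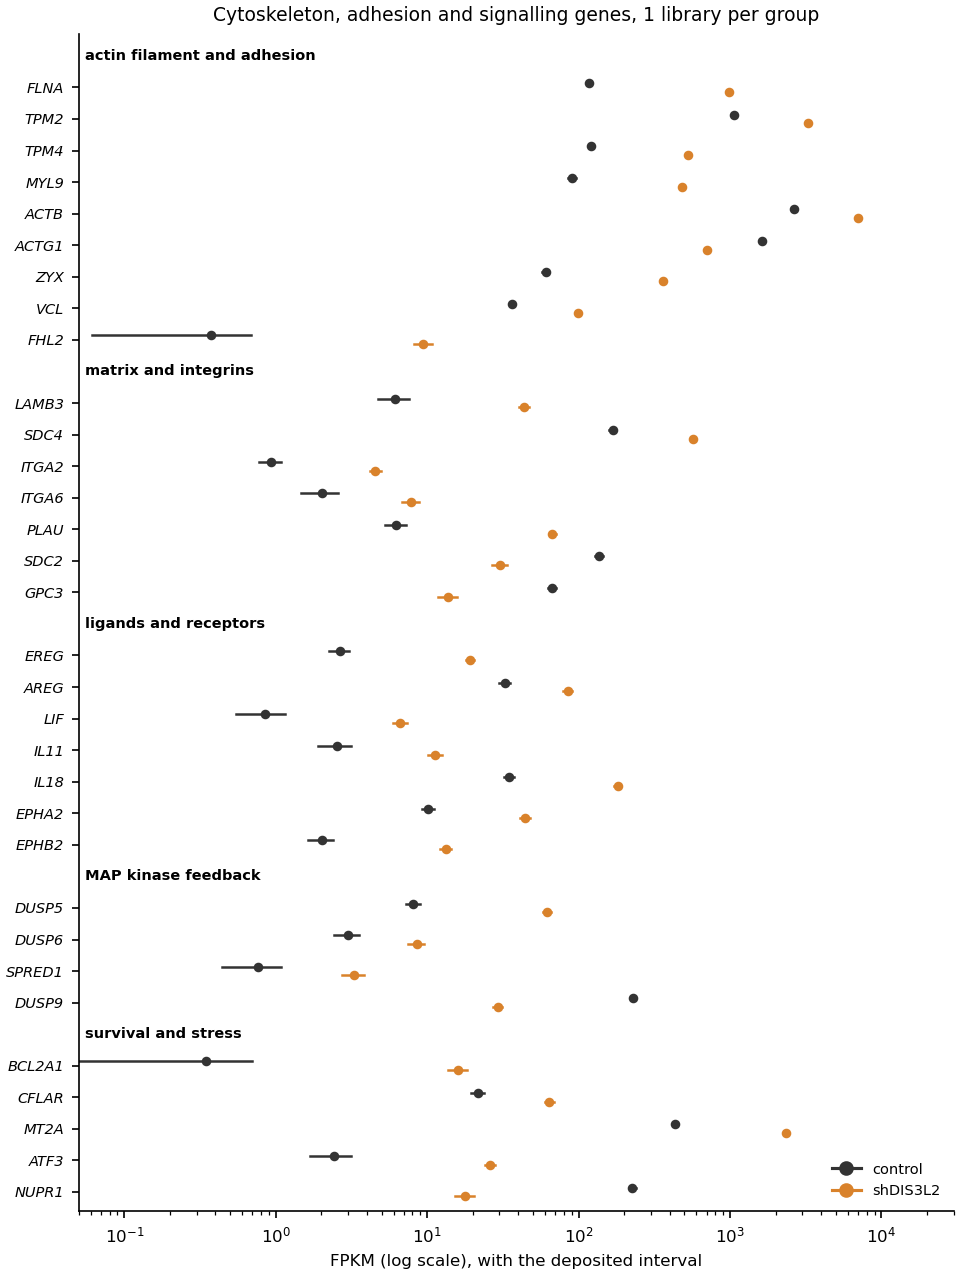
FPKM (horizontal axis, log scale) of cytoskeletal, adhesion, ligand, feedback and survival genes in control (dark) and shDIS3L2 (orange), 1 library each, with bars for the deposited interval. Interval ends below 0.05 FPKM are drawn to the axis edge. Most orange points lie right of control, and ACTG1, SDC2, GPC3, DUSP9 and NUPR1 lie left.

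Some growth factor ligands and receptors were among the higher genes. EREG, epiregulin, a ligand of the EGF receptor, was measured at 2.64 FPKM (2.24 to 3.05) in control and 19.2 FPKM (18.03 to 20.3) in shDIS3L2, a log2 ratio of 2.47, and at 22.4 FPKM in shHNRNPU. AREG, amphiregulin, of the same family, was measured at 32.6 FPKM (29.9 to 35.3) in control and 84.7 FPKM (79.3 to 90.2) in shDIS3L2. HBEGF, another ligand, went from 1.05 to 3.01 FPKM, log2 ratio 0.96 and did not pass, and the receptor genes EGFR (29.5 to 32.4 FPKM, log2 ratio 0.13) and ERBB2 (30.5 to 32.1 FPKM, log2 ratio 0.07) were near the median of all loci. ERRFI1, a feedback inhibitor of the receptor, was higher (17.01 to 48.9 FPKM, log2 ratio 1.47). In all 3 of 8 counted EGF family genes were higher and 0 lower. PDGFB (8.27 to 29.999 FPKM, log2 ratio 1.74) and PDGFC (6.93 to 21.7 FPKM, log2 ratio 1.52), ligands of the PDGF receptors, were higher. EPHA2, an ephrin receptor raised in many carcinomas, was measured at 10.2 FPKM (9.28 to 11.05) in control and 44.4 FPKM (41.2 to 47.6) in shDIS3L2, and EPHB2 at 2.01 FPKM (1.63 to 2.396) in control and 13.3 FPKM (12.2 to 14.3) in shDIS3L2. These 4 were the higher members of 18 counted receptor tyrosine kinases and other growth factors, 2 of 4 ligands and 2 of 14 receptors, and FGFR4 was the 1 lower. F2RL1, a receptor cut and activated by serine proteases, was measured at 5.25 FPKM (4.62 to 5.89) in control and 37.04 FPKM (34.9 to 39.1) in shDIS3L2, a log2 ratio of 2.605.

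Feedback genes of the MAP kinase pathway, which that pathway induces, had 6 higher and 1 lower of 21, with a median log2 ratio of 0.69 (4 higher both after rescaling and after GC centring). DUSP6, a phosphatase specific for ERK, was measured at 2.99 FPKM (2.42 to 3.55) in control and 8.52 FPKM (7.46 to 9.58) in shDIS3L2. SPRED1, an inhibitor of RAS signalling, was measured at 0.764 FPKM (0.442 to 1.09) in control and 3.26 FPKM (2.73 to 3.802) in shDIS3L2, and SPRY4, a Sprouty protein, went from 1.497 to 4.92 FPKM, log2 ratio 1.24. SPRED1 reached the mean of 1 FPKM only through shDIS3L2, so its call is tied to the filter. DUSP9, a related ERK phosphatase, went the other way, at 229 FPKM (220.4 to 238) in control and 29.3 FPKM (27.3 to 31.3) in shDIS3L2, a log2 ratio of -2.93. MAP2K1, which encodes the kinase MEK1, was listed at 0 in control and at 47.1 FPKM in shDIS3L2, so no fold is given. Of 12 counted AP-1 factors 3 were higher and 0 lower. FOSL1, which encodes the AP-1 protein FRA1, was listed at 0 in control and at 35.4 FPKM in shDIS3L2. JUNB (55.5 to 105 FPKM, log2 ratio 0.91) and JUND (241 to 144 FPKM, log2 ratio -0.74) pointed opposite ways without passing. Both genes at 0 were picked after their values were seen.

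All 5 counted interleukins and colony-stimulating factors were higher, with a median log2 ratio of 1.80, while of 13 chemokines 3 were higher and 1 lower, with a median of -0.33. That makes 8 higher and 1 lower of 18, and 17 more were below 1 FPKM, IL6, IL1B and TNF among them. Of the 16 listed interleukins and colony-stimulating factors, 11 were below 1 FPKM. LIF reached the mean of 1 FPKM only through its value in shDIS3L2, so its call is tied to the filter. The median over the 18 was 0.08, but -0.02 under rescaling and -0.03 after GC centring. IL11, of the IL6 family, was measured at 2.53 FPKM (1.91 to 3.14) in control and 11.3 FPKM (10.1 to 12.5) in shDIS3L2, and LIF, of the same family, at 0.849 FPKM (0.546 to 1.15) in control and 6.66 FPKM (5.96 to 7.36) in shDIS3L2. IL18, activated by inflammasomes, was measured at 34.8 FPKM (32.1 to 37.6) in control and 181 FPKM (172 to 189) in shDIS3L2, a log2 ratio of 2.34. CSF1, the macrophage growth factor, went from 8.91 to 22.5 FPKM, log2 ratio 1.25, and IL32, an abundant transcript here, from 702 to 1607 FPKM, log2 ratio 1.19. CXCL1, which draws neutrophils, stood at 78.3 to 50.1 FPKM, log2 ratio -0.63, and CXCL16 was lower (335 to 165 FPKM, log2 ratio -1.02). Targets and members of the NF-kB pathway had 6 higher and 0 lower of 22, with a median of 0.76 (3 higher after rescaling). TNFAIP3, the feedback protein A20, was measured at 5.42 FPKM (4.61 to 6.22) in control and 15.7 FPKM (14.4 to 16.96) in shDIS3L2, and SOD2, the mitochondrial superoxide dismutase, at 239.7 FPKM (229 to 251) in control and 515 FPKM (494 to 536) in shDIS3L2. ICAM1, a leukocyte adhesion receptor, went from 29.5 to 60.6 FPKM, log2 ratio 1.02. Of 16 interferon-stimulated genes ISG20 was higher (23.2 to 65.7 FPKM, log2 ratio 1.47) and IFI6 lower (47.6 to 11.2 FPKM, log2 ratio -1.996).

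The AP-1 element, TGANTCA, was in 4.77% of the windows of counted genes, in 7.71% of the whole table, in 6.68% of those of higher genes and in 3.9% of those of lower genes. At 4-fold it was in 7.69% of 78 higher and 2.5% of 40 lower windows. The NF-kB letters GGNNTTTCC were in 6.89% of the windows of counted genes and in 7.83% and 5.05% of those of higher and lower genes. At 4-fold they were in 5.13% and 5%, and in the whole table in 6.26%. Promoter stretches of a chemokine, a cytokine, a matrix gene and a metal-binding protein that hold the AP-1 letters are printed with the match in capitals, on the gene's strand (GRCh38.p14, RefSeq).
IL8, chr4:73740396-73740475, + strand: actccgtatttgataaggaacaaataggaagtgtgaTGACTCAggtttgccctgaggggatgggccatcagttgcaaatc
IL11, chr19:55370516-55370595, - strand: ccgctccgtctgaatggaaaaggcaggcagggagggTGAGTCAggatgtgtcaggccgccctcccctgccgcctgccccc
LAMB3, chr1:209651398-209651477, - strand: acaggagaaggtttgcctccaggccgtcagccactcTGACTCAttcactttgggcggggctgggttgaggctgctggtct
MT2A, chr16:56608444-56608523, + strand: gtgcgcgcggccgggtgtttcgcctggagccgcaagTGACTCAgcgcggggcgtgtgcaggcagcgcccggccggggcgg
The capitals begin 137 bases before the start in IL8, 96 in IL11, 67 in LAMB3 and 104 in MT2A. MT2A, a metallothionein that binds zinc and copper, was the most abundant of these genes, at 432 FPKM (411 to 453) in control and 2342 FPKM (2241 to 2443) in shDIS3L2, a log2 ratio of 2.44, with 1817 FPKM in shHNRNPU. MT1X, another metallothionein, was higher (103 to 274 FPKM, log2 ratio 1.401). SLC30A10, an exporter of manganese, was lower (4.36 to 0.384 FPKM, log2 ratio -1.95).

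Stress lists differed in their share of higher genes, against 7.37% over all loci that join at most 1 coding gene. The integrated stress response had 6 higher (24%) and 1 lower of 25, with a median log2 ratio of 0.80 (9 higher and 2 lower after GC centring). The lower member was NUPR1, a small stress-induced nuclear protein, measured at 226 FPKM (214 to 238) in control and 17.9 FPKM (15.4 to 20.3) in shDIS3L2, a log2 ratio of -3.59. ATF3, a stress-induced factor, was higher, at 2.41 FPKM (1.69 to 3.13) in control and 26.1 FPKM (23.98 to 28.1) in shDIS3L2. GDF15, a secreted stress hormone, was measured at 605 FPKM (578 to 632) in control and 1664 FPKM (1593 to 1735) in shDIS3L2. ASNS, asparagine synthetase, was measured at 54.1 FPKM (50.9 to 57.3) in control and 146 FPKM (139.6 to 152) in shDIS3L2, and STC2, a stanniocalcin, went from 41.5 to 98.9 FPKM, log2 ratio 1.23. ATF4, the factor at the centre of that response, stood at 393 to 733 FPKM, log2 ratio 0.896 and did not pass. Cytosolic tRNA synthetases, many of them ATF4 targets, had 2 higher of 20, TARS (46.9 to 133 FPKM, log2 ratio 1.48) and GARS (103 to 224 FPKM, log2 ratio 1.11). In the endoplasmic reticulum list 3 of 38 were higher (7.89%, near the share of all loci) and CREB3L3 was lower. HERPUD1, a part of protein disposal there, was measured at 30.04 FPKM (27.7 to 32.4) in control and 98.2 FPKM (93.7 to 103) in shDIS3L2, and ATF6, a sensor, at 6.08 FPKM (5.61 to 6.55) in control and 16.7 FPKM (15.2 to 18.2) in shDIS3L2. Among heat shock genes HSPB8 (4.92 to 28.5 FPKM, log2 ratio 2.32) and HSPH1 (34.4 to 81.2 FPKM, log2 ratio 1.22) were the 2 higher of 27. That share, 7.41%, was also near that of all loci.

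Of 22 counted NRF2 and redox genes 3 were higher and 1 lower, with a median of 0.13 that became -0.001 after rescaling. Of 15 hypoxia genes 3 were higher and 0 lower, with a median of 0.26 (3 and 1, with 0.01, after GC centring). NFE2L2, the antioxidant factor NRF2, went from 21.3 to 48.01 FPKM, log2 ratio 1.14. Its targets TXNRD1, thioredoxin reductase, and GCLC, of glutathione synthesis, were higher, at 24.9 to 78.7 FPKM and 7.29 to 20.6 FPKM. GPX2, a glutathione peroxidase and another NRF2 target, was lower, at 11.8 FPKM (10.1 to 13.5) in control and 2.197 FPKM (1.27 to 3.13) in shDIS3L2. SEPHS2, which supplies selenium for enzymes such as GPX2 and TXNRD1, was lower as well (408 to 134 FPKM, log2 ratio -1.59). ADM, adrenomedullin, was measured at 16.5 FPKM (14.7 to 18.3) in control and 59.4 FPKM (55.5 to 63.3) in shDIS3L2, and NDRG1 went from 3.398 to 11.8 FPKM, log2 ratio 1.54, both known hypoxia-responsive genes. VEGFA, another such gene, stood at 22.2 and 22.2 FPKM.

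Survival genes and p53 targets had calls mostly upward. Of 8 counted anti-apoptotic members of the BCL2 and IAP families 5 were higher and 0 lower, with a median of 1.19. BCL2A1, among the higher ones, was at 0.349 FPKM in control and 16.05 FPKM in shDIS3L2. It reached the mean of 1 FPKM only through shDIS3L2, so its call is tied to the filter. BIRC2, an inhibitor of apoptosis of the cIAP type, was measured at 11.8 FPKM (10.7 to 12.9) in control and 31.7 FPKM (29.6 to 33.8) in shDIS3L2. CFLAR, which blocks caspase-8, was measured at 21.6 FPKM (19.5 to 23.6) in control and 64.2 FPKM (60.02 to 68.4) in shDIS3L2, and MCL1 went from 27.9 to 57.8 FPKM, log2 ratio 1.03. BCL2L1 stood at 231 to 234 FPKM and BIRC5, survivin, at 111 to 79.8 FPKM, log2 ratio -0.47. Among 12 pro-apoptotic genes, PMAIP1 (NOXA, 2.79 to 9.67 FPKM, log2 ratio 1.49), BBC3 (PUMA, 4.67 to 11.8 FPKM, log2 ratio 1.17) and BIK (1.95 to 7.68 FPKM, log2 ratio 1.56) were higher, and CYCS, cytochrome c, was lower, at 239.5 FPKM (225 to 254) in control and 88.6 FPKM (82.95 to 94.2) in shDIS3L2. None of 7 counted caspases passed, and the 27 genes of the whole list had 8 higher and 1 lower (6 and 1 after GC centring). Of 23 counted p53 genes 7 were higher and 0 lower, with a median of 0.42. They included CCNG1 (13.01 to 38.04 FPKM, log2 ratio 1.48) and BTG2 (1.93 to 6.07 FPKM, log2 ratio 1.27) besides PMAIP1 and BBC3. Several of these genes also respond to stress signals other than p53.

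Most replication and mitosis genes did not pass the rule. Of 43 counted DNA replication genes 0 were higher and 3 lower (6.98%, near the 5.06% of all loci), with a median log2 ratio of -0.31. LIG1, which joins Okazaki fragments, was measured at 27.5 FPKM (25.9 to 29.05) in control and 11.6 FPKM (10.2 to 12.97) in shDIS3L2. Of 48 mitosis genes 6 were higher and 0 lower, with a median of 0.18 that became -0.01 after GC centring, with 4 higher. ECT2, an exchange factor needed for cell division, was measured at 17.2 FPKM (15.99 to 18.5) in control and 54.04 FPKM (51.3 to 56.8) in shDIS3L2, and WEE1, the kinase that holds cells before mitosis, at 8.69 FPKM (7.49 to 9.89) in control and 29.2 FPKM (27.1 to 31.2) in shDIS3L2. ANLN, anillin, of the contractile ring, went from 10.9 to 31.5 FPKM, log2 ratio 1.45, and CENPF, a kinetochore protein, from 4.44 to 13.1 FPKM, log2 ratio 1.38. Among G1 genes CCND1, cyclin D1, was measured at 37.8 FPKM (35.7 to 39.8) in control and 95.4 FPKM (90.8 to 99.99) in shDIS3L2, and CDK6, its kinase partner, at 1.38 FPKM (0.665 to 2.09) in control and 5.24 FPKM (4.36 to 6.11) in shDIS3L2. Histone genes gave 7 higher and 4 lower of 37. The linker histones H1F0 (265 to 91.6 FPKM, log2 ratio -1.52) and H1FX (249.7 to 94.4 FPKM, log2 ratio -1.39) were lower, and HIST1H2BK was higher (63.9 to 186 FPKM, log2 ratio 1.53). Many histone genes have nearly identical coding sequences, and their transcripts are mostly without poly(A) tails, so their values are uncertain.

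Large housekeeping complexes stayed near the median of all loci. Of 37 counted proteasome genes 0 passed in either direction, with a median log2 ratio of 0.13. Cytosolic ribosomal proteins had 2 higher and 0 lower of 69, with a median of 0.21. RPLP2, a stalk protein, was measured at 1505 FPKM (1439 to 1571) in control and 3306 FPKM (3175 to 3437) in shDIS3L2. Lysosome and autophagy genes had 2 higher of 53, both of the ATG8 family that coats autophagosomes, GABARAPL1 (9.23 to 31.3 FPKM, log2 ratio 1.66) and MAP1LC3B (28.4 to 76.02 FPKM, log2 ratio 1.39). Translation factors had 3 higher and 1 lower of 42. PABPC1, the cytoplasmic poly(A)-binding protein, was measured at 222 FPKM (214 to 229) in control and 587 FPKM (567 to 606) in shDIS3L2, and EIF2S2, a subunit of the initiation factor eIF2, at 72.2 FPKM (68.5 to 75.9) in control and 181 FPKM (175 to 188) in shDIS3L2. EEF2K, the kinase that slows elongation, was lower (4.32 to 1.58 FPKM, log2 ratio -1.04). Of 25 counted reference genes 2 were higher, ACTB being one of them.

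Nuclear genes for mitochondria had calls in both directions. Oxidative phosphorylation had 7 higher and 1 lower of 58 (3 higher after GC centring). COX7C, a small subunit of cytochrome oxidase, was measured at 356 FPKM (336 to 377) in control and 1485 FPKM (1419.7 to 1549.7) in shDIS3L2, a log2 ratio of 2.06, and COX7B, another subunit, at 167 FPKM (156 to 178) in control and 54.9 FPKM (51.5 to 58.2) in shDIS3L2, a log2 ratio of -1.59. NDUFA3, of complex I, went from 59.5 to 202 FPKM, log2 ratio 1.74. Mitochondrial ribosomal proteins had 5 higher and 3 lower of 59 (3 and 3 after GC centring). These shares, 8.47% and 5.08%, were near the 7.37% and 5.06% of all loci that join at most 1 coding gene. MRPS36 was measured at 22.8 FPKM (19.2 to 26.4) in control and 163 FPKM (131 to 195) in shDIS3L2, with 22.7 FPKM in shHNRNPU, and MRPS25 at 9.41 FPKM (8.56 to 10.2) in control and 56.8 FPKM (51.4 to 62.2) in shDIS3L2, with 9.97. MRPL42 was lower (48.6 to 14.9 FPKM, log2 ratio -1.64). Most of these are short transcripts of a few exons, whose FPKM depends on the isoform lengths assigned.

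RNA-binding and noncoding genes had calls at a few points. Of 55 counted splicing regulators 5 were higher and 0 lower, with a median of 0.18 that became -0.06 after GC centring, with 3 higher and 1 lower. CLK1, a kinase of SR proteins whose own transcript is made in a spliced and an intron-holding form, was measured at 6.85 FPKM (5.65 to 8.05) in control and 48.02 FPKM (42.1 to 53.9) in shDIS3L2, a log2 ratio of 2.64. PTBP2, a neural relative of the splicing repressor PTBP1, went from 3.79 to 14.8 FPKM, log2 ratio 1.72, and MBNL1 and MBNL2, which drive differentiated splicing patterns, from 5.68 to 14.4 FPKM and from 4.14 to 10.3 FPKM. Of 14 counted long noncoding RNAs 6 were lower and 2 higher. UCA1, an abundant cancer-linked RNA, was measured at 1168 FPKM (1118 to 1217) in control and 421 FPKM (406 to 436) in shDIS3L2. NEAT1, the scaffold of paraspeckles, was measured at 7.86 FPKM (6.57 to 9.15) in control and 2.81 FPKM (1.62 to 3.9999) in shDIS3L2, and H19, an imprinted fetal RNA, at 7.83 FPKM (6.54 to 9.12) in control and 1.54 FPKM (0.279 to 2.797) in shDIS3L2. HULC, named for liver cancer, went from 6.52 to 1.11 FPKM, log2 ratio -1.83. MIR22HG was higher, at 4.56 FPKM (0 to 9.22) in control and 27.5 FPKM (24.8 to 30.3) in shDIS3L2, and PVT1, beside MYC, went from 3.97 to 13.8 FPKM, log2 ratio 1.58. MALAT1 stood at 1.84 to 4.01 FPKM, log2 ratio 0.82 and did not pass. Over all 427 counted long noncoding loci, 8.67% were higher and 9.6% lower, with a median of -0.04. No source at hand describes the libraries as stranded, so antisense genes share fragments with their partners.

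Genes silent in most adult tissues were higher in part. Of 18 counted cancer-testis genes 9 were higher and 0 lower, with a median of 0.83 (7 higher after rescaling). XAGE1B was measured at 27.6 FPKM (23.8 to 31.4) in control and 71.7 FPKM (64.6 to 78.8) in shDIS3L2, and PAGE1 at 0.0933 FPKM (0 to 0.2798) in control and 2.47 FPKM (1.39 to 3.55) in shDIS3L2. PAGE1 reached the mean of 1 FPKM only through shDIS3L2. MAGEA4, the most abundant member, stood at 672 to 375 FPKM, log2 ratio -0.84 and did not pass, nor did CTAG2 (528 to 526 FPKM). The VCX, GAGE and XAGE genes have near-identical copies on the X chromosome, so how reads were divided among them is uncertain, and 7 of the 9 higher members are VCX, GAGE or XAGE genes. Among all 407 counted loci of that chromosome, 11.5% were higher and 2.95% lower. The highest ratio of all belonged to C1DP1, a processed pseudogene with a wide interval, at 2.64 FPKM (0 to 30.5) in control and 256 FPKM (119.7 to 392) in shDIS3L2, and 2963 FPKM in shHNRNPU.

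Markers of cell types were read against the label. Of 12 hepatocyte markers 11 were counted, and 7 were lower and 1 higher, with a median of -1.18. ALB, APOA1, TTR, SERPINA1, ASGR1, ASGR2 and FGB are among them and were named above, so this count repeats values already given. CPS1, a urea cycle enzyme and hepatocyte marker, stood at 1.32 to 1.17 FPKM. Bile duct and progenitor markers had 2 higher of 5, KRT7 and SOX9 (4.08 to 10.04 FPKM, log2 ratio 1.12), with EPCAM at 69.03 to 88.1 FPKM, log2 ratio 0.35 and KRT19 at 0.568 to 1.71 FPKM, log2 ratio 0.79. Of 10 fibroblast and stellate cell markers 9 were below 1 FPKM, and PDGFRA lay at a joined locus. Of 7 endothelial markers 6 were below 1 FPKM. Of 10 blood cell markers 6 were below it, PTPRC among them, and LYZ, lysozyme, was lower, at 181 FPKM (172 to 190.2) in control and 33.5 FPKM (30.8 to 36.3) in shDIS3L2. The part of other cell types in the lower liver transcripts was not tested beyond these levels.

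A further 448 loci with a mean of at least 1 FPKM were listed at 0 in 1 library, 217 in control and 231 in shDIS3L2, and entered no count above. Genes used by every cell were among them: MRPL36, of the mitochondrial ribosome, was at 73.01 FPKM in control and SURF1, of cytochrome oxidase assembly, at 84.9, and both were listed at 0 in shDIS3L2. In the other direction ANAPC15, of the anaphase-promoting complex, was listed at 0 in control and at 361 FPKM in shDIS3L2. MTHFD2, a mitochondrial folate enzyme, was listed at 0 in control and at 104 FPKM in shDIS3L2. F12, a clotting factor, was at 30.1 FPKM in control and listed at 0 in shDIS3L2. These genes were chosen after their values were seen, and such zeros can be failed estimates, so no fold is given.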

How the data were processed

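Per the file headers, the authors deposited for each gene its FPKM, the 2 bounds of an interval whose level is not stated, and a status. Per the submitters' processing notes, the tools were TopHat2 2.0.12 and Cufflinks 2.2.1 on build hg19. Per the labels' protocols, TRIZOL-extracted total RNA was cleaned on a column with DNase before NEBNext Ultra library preparation. The tables hold no fragment counts, so no count test was run, and with 1 library per group no test of any kind was.

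Rows of both libraries were matched by gene name and overlapping locus, with Python 3.11.15, pandas 2.3.3 and numpy 2.4.6. Ratios used a pseudocount of 1 FPKM. Loci needed a mean of at least 1 FPKM and an OK status in both libraries, and loci at exactly 0 in 1 library were set apart. A gene below 1 FPKM in 1 library could thus be counted through the other library alone. The genes described, the 81 gene lists (2480 genes) and the motifs were chosen with earlier results of these data known. Genes were named by a rule: DIS3L2, the 30 highest and 30 lowest genes of those reaching 5 FPKM in 1 library at loci no shorter than 300 bases, the 6 most extreme called members of a list in each direction, the 4 members with the highest control FPKM, and all measured members of roles of up to 12. Members at loci joining another coding gene, or joined differently in the libraries, were left out of list counts, a choice made after seeing the data. Coding genes and transcript GC came from GENCODE 29, and promoter windows of 300 bases from RefSeq on GRCh38.p14, matched by symbol, with 1609 genes unmatched. Intervals cover estimation within a library and not variation between cultures. The calling script was tested on simulated data. Other settings tried are listed in the closing section. Some genes are not reported here.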

Additional observations from a re-analysis of the deposited data

Results flagged for a closer look

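In shDIS3L2 11 entries lay on the mitochondrial chromosome and in control there were 0, a signal in rows that no ratio used. Of the 11 entries 2 were above 0, and the highest joined 26 gene names at 33451 FPKM (32578 to 34324). The shHNRNPU table held 10 such entries, the highest of them at 38281 FPKM (37415 to 39148). Whether mitochondrial fragments entered the total by which control FPKM were scaled is not stated in any source at hand. Its part in the median log2 ratio of 0.10 over all loci was not tested.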

How the results depend on the processing

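No paired analysis was possible because each group holds 1 library. Of the 774 higher and 541 lower loci, counts within 1.5 times were found with a pseudocount of 0.1, other filters on low values, no use of the intervals, loci at 0 counted in, loci of 1 name with like bounds, and rescaling. Matching by name alone was run for loci, lists and named genes, and its counts of loci are not given here. A pseudocount of 5 gave 353 higher and 243 lower loci. A 1.5-fold rule gave 1946 and 1362, and a 4-fold rule 76 and 58. Centring by transcript GC, added after seeing the data, gave 471 higher and 445 lower of 8906 loci, against 665 and 421 there without it. DIS3L2 kept its direction, with a log2 ratio of -0.62 at a pseudocount of 5, -0.998 after GC centring and -1.03 under the 4-fold rule, none of them past the rule then in force, and no value at loci of 1 name. Of 325 named genes past the rule, 0 changed direction under any setting, while 108 fell short at a pseudocount of 5, 34 after rescaling, 45 of 307 after GC centring and 244 at 4-fold. Depth, estimated at 22.7 M and 18.2 M fragments from the interval widths, limits low genes most, and no setting replaces replicate cultures.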

Other observations

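Several genes at the ends of the ratio range belong to no group described above. NCEH1, a hydrolase of neutral cholesterol esters, was measured at 14.3 FPKM (13.3 to 15.3) in control and 102 FPKM (97.6 to 106) in shDIS3L2, a log2 ratio of 2.75, and at 28.6 FPKM in shHNRNPU. AMPD3, an AMP deaminase, was measured at 0.228 FPKM (0 to 1.02) in control and 7.34 FPKM (5.88 to 8.802) in shDIS3L2. SEMA7A, a membrane-anchored semaphorin that binds integrins, was measured at 1.38 FPKM (0.901 to 1.86) in control and 11.8 FPKM (10.7 to 12.8) in shDIS3L2. AGPAT9, an acyltransferase at the start of triglyceride synthesis, went from 4.32 to 28.1 FPKM, log2 ratio 2.45, and CMTM3, a small membrane protein, from 8.48 to 56.9 FPKM, log2 ratio 2.61. At the lower end, SERINC5, a membrane protein known to restrict retroviruses, was measured at 8.06 FPKM (6.98 to 9.14) in control and 0.865 FPKM (0.348 to 1.38) in shDIS3L2. GTF2H5, the smallest subunit of the transcription and repair factor TFIIH, was measured at 23.05 FPKM (19.4 to 26.7) in control and 3.55 FPKM (3.23 to 3.86) in shDIS3L2, although an expressed gene overlaps it. KLHL18, a ubiquitin ligase adaptor, was higher (8.78 to 53.6 FPKM, log2 ratio 2.48), also with an overlapping expressed gene.

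Transport and vitamin D genes were higher while most of their lists did not pass. ABCG2 (6.89 to 17.4 FPKM, log2 ratio 1.22) and ABCC1 (9.44 to 21.4 FPKM, log2 ratio 1.099), which export drugs and conjugates, and SLC51B, which exports bile acids (33.5 to 90.9 FPKM, log2 ratio 1.41), were 3 higher of 9 counted hepatic transporters, and 0 were lower. CYP2R1, which makes the storage form of vitamin D, was measured at 3.65 FPKM (2.82 to 4.49) in control and 21.5 FPKM (17.2 to 25.9) in shDIS3L2. CYP24A1, which degrades the active form, was measured at 5.498 FPKM (4.43 to 6.57) in control and 17.99 FPKM (16.03 to 19.9) in shDIS3L2. These were the 2 higher of 10 counted cytochrome P450 genes, against 7.37% of all loci that join at most 1 coding gene. In the Wnt list 2 of 27 were higher, DKK3, a secreted Dickkopf protein (5.76 to 15.3 FPKM, log2 ratio 1.27), and TCF7L2, a nuclear effector (4.403 to 12.7 FPKM, log2 ratio 1.35). ZNRF3, which removes Wnt receptors, was lower (14.1 to 5.74 FPKM, log2 ratio -1.16).

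Chromosomes differed in their share of calls. Chromosome 19 had a median log2 ratio of -0.12 with 3.76% of 745 loci higher, and chromosome 17 had 4.58% of 655 higher and 7.79% lower. Chromosome 2, which holds DIS3L2, had 10.6% of 698 higher and 5.3% lower, and chromosome 15 had 10.4% of 364 higher and 3.02% lower. GC content differs between chromosomes, and its part in these shares was not tested.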
